A study of Mus musculus with 16 samples.

Results

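The genes described here are the mouse chemokines of the Ccl, Cxcl and Cx3cl1 series and the 4 atypical chemokine receptors, Ackr1 to Ackr4, in primary lung fibroblasts. They were chosen by symbol alone: a probe belonged to the set when its transcript mapped to a name that starts with Ccl or Cxcl and a number, or that is Cx3cl1 or one of the atypical receptors. The array held 38 such genes, 34 chemokines and 4 receptors, among 22911 named genes. Another 9 symbols that match the rule had no matched probe and were not analysed here: Cxcl11, Ccl21b, Ccl21c, Ccl21d, Ccl27b and 4 pseudogenes.

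Total RNA was hybridised to 1-colour Agilent arrays in 4 groups of 4 arrays. Wild type cells came from C57BL/6J mice and the mutant cells from Meflin knockout mice, all labelled female and 8 weeks old. Meflin is a surface protein of fibroblasts and other mesenchymal cells, encoded by Islr. Each genotype was cultured for 48 h in the presence of TGF-β1 (recombinant protein, 5 ng/ml, the dose of all treated cells) or of vehicle alone. The labels do not say whether the wild type mice were littermates of the knockouts, name no cell sort, and describe the isolation as enzymatic digestion, so both cultures could hold other lung cells.

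Chemokines are small secreted proteins that steer leukocytes by binding G protein-coupled receptors on their surface, and they are grouped by the spacing of their first cysteines into CC, CXC and CX3C families. CXC chemokines with the ELR motif (glutamate, leucine, arginine) draw neutrophils, the monocyte chemoattractants draw monocytes, and others place lymphocytes within tissue. Atypical receptors bind chemokines without the usual G protein signal and take them up, carry them or hold them. Lung fibroblasts are a known source of several chemokines, and transcription factors of the NF-kB family, named for the site they bind, drive many of the inflammatory ones. TGF-β1 is best known for making fibroblasts contractile and matrix-producing.

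The stretches before the start of transcription are printed for 5 of the genes, as RefSeq gives them on build GRCm38.p6. In the first 3, capitals mark matches to an NF-kB type motif (GGG, any 2 bases, TTTCC) on either strand: Cxcl1 and Cxcl2 adjoin each other and both fell with TGF-β1, while Ccl20 carries such a match and rose. In the last 2, capitals mark TATAAA on either strand: Ccl12 and Ccl8 are next to each other on chromosome 11 and went opposite ways with TGF-β1 in wild type cells. Each run is the 250 bases before the start, 5′ to 3′, on the plus strand.
Cxcl1, chr5:90890995-90891244: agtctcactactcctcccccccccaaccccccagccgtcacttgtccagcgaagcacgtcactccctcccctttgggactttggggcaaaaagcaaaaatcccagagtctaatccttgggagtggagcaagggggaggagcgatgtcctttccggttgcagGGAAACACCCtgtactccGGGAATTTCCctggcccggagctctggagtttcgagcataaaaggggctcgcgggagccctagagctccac
Cxcl2, chr5:90903649-90903898: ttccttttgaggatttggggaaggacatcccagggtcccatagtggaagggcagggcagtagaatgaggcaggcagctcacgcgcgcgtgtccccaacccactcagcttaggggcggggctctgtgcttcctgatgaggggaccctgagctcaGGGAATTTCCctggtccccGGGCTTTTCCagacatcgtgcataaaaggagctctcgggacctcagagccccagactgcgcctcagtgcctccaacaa
Ccl20, chr1:83116516-83116765: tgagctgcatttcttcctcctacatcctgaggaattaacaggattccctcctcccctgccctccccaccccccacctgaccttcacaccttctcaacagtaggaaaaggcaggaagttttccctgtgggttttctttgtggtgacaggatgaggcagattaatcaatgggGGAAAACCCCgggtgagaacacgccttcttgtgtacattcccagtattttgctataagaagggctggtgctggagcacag
Ccl12, chr11:82101595-82101844: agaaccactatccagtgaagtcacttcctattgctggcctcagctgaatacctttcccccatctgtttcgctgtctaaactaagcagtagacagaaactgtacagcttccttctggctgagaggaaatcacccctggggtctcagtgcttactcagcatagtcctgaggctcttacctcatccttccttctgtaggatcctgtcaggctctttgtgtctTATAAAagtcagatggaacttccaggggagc
Ccl8, chr11:82114935-82115184: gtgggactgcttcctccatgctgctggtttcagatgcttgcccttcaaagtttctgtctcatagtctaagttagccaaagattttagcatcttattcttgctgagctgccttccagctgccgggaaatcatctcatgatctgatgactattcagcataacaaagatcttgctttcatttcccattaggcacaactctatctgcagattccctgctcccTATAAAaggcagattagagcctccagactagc
A window of 250 bases before to 50 after the start was given for 28 of the 38 genes. Among those without a window were Cxcl5, Ccl2, Ccl4, Ccl7 and Ccl11. The NF-kB type motif matched in 5 of the 28 (Cxcl1, Cxcl2, Cxcl3, Ccl9 and Ccl20), against 1.89% of 27025 genes and 1.63% of 32851 windows. Its first base lay at -89 and -71 in Cxcl1, at -97 and -78 in Cxcl2 and at -80 in Ccl20, counted back from the start. An AP-1 type motif, TGANTCA, matched in 5 of the 28 (Cxcl9, Cxcl10, Ccl9, Ccl27a and Ccl28), against 8.97% of genes. The SMAD palindrome GTCTAGAC matched in 0 of the 28, against 0.248% of genes, and TATAAA matched in 11 of the 28, against 15.7%. In Ccl12 and Ccl8 the TATAAA match began at -31 and -32. These are matches of letters on both strands in a fixed window, and the NF-kB type matches were found in genes that fell, rose or stayed at background.

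Signal is given as log2 of the spot intensity after each array was shifted to a common 75th percentile, so 1 unit is a 2-fold difference. A probe counts as measured on an array when the scanner software marked it well above background. Of the 38 genes, 21 were well above background on all 16 arrays. A further 6, Cxcl3, Cxcl9, Cxcl15, Cxcl17, Ccl1 and Ccl26, were not well above background on any array. Ackr4 and Ccl22 were well above it on 1 array each, Ackr4 at 3.84 with wild type vehicle and Ccl22 at 6.68 on knockout TGF-β1 replicate 1. The other 3 arrays of that knockout group had Ccl22 at 1.97 to 1.99, so its value rests on a single spot reading. These 8 genes were not tested, and the remaining 30 were.

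The other facts of the arrays are few. The 75th percentile of intensity ran from 382 to 526 and 31322 to 35472 probes per array were well above background, the lowest number on a knockout TGF-β1 array. The targeted gene Islr stood at 10.82 ± 0.06 (SD, n = 4) with vehicle and 8.34 ± 0.08 with TGF-β1 in wild type cells, and stayed at background on all 8 knockout arrays. Its 1 probe could lie outside the deleted part. All 10 fibroblast markers listed, such as Col1a1, Pdgfra and Thy1, were well above background on every array. So were all 12 macrophage and leukocyte markers, among them Cd68, Csf1r and Lyz2, and 8 of 9 endothelial markers. The ninth, Tek, was so on all arrays but 1. Of 5 neutrophil markers on the array, S100a8, Csf3r, Elane and Mpo were well above background on all 16 arrays and S100a9 on 0. Of 6 lymphocyte markers, the T cell marker Cd3e was well above background on all 16 arrays and Cd3g on 1 treated knockout array. The other 4, among them the B cell markers Cd79a and Ms4a1, were at background throughout. The design text gives 4 independent experiments per group, and nothing ties an array to a mouse or culture, so p-values measure the spread between these arrays.

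TGF-β1 against vehicle in wild type cells asked how the cytokine alters chemokine RNA in normal lung fibroblasts. Of the 30 genes tested, 7 rose and 19 fell at an adjusted p under 0.05, where 68.6% of all 15394 genes tested changed, 41.3% upward and 27.3% downward. All adjusted p-values are 2-sided, from limma with Benjamini-Hochberg adjustment over the 15394 genes. At a fitted size of at least 2-fold, 3 rose and 13 fell, where 3.26% of all genes rose and 6.45% fell that far. The median log2 difference was -0.97 over the 30 and 0.08 over all genes. Because 9 of the 30 passed the filter only through the groups in which they were bright, the count over the 21 measured on every array is also given: 7 rose and 12 fell, 3 and 6 of them by 2-fold or more, with a median of -0.63. For those 9, a p-value against a group at background adds no separate support. In these bulk cultures fewer cells of a type and less RNA per cell cannot be told apart.

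The same comparison in knockout cells gave 7 rises and 20 falls among the 30, where 82.5% of all genes changed, 46.6% upward and 35.9% downward. Fitted falls of at least 2-fold numbered 16 and rises 3, where 13.6% of all genes fell and 9.56% rose that far. The median was -1.62 over the 30 and 0.10 over all genes. Over the 21 genes measured on every array 6 rose and 13 fell, 2 and 9 of them by 2-fold or more, with a median of -0.74. The difference between the responses, which is the knockout response minus the wild type response, passed the test for 23 of the 30, where 58.2% of all genes passed: it was negative for 15 and positive for 8, against 26.5% and 31.7% of all genes. At a fitted size of 2-fold or more it was negative for 13 and positive for 2, against 6.72% and 3.24%. Over the 21 genes measured on every array it was negative for 11 and positive for 6, and 9 and 1 at 2-fold.

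**Figure D1:**
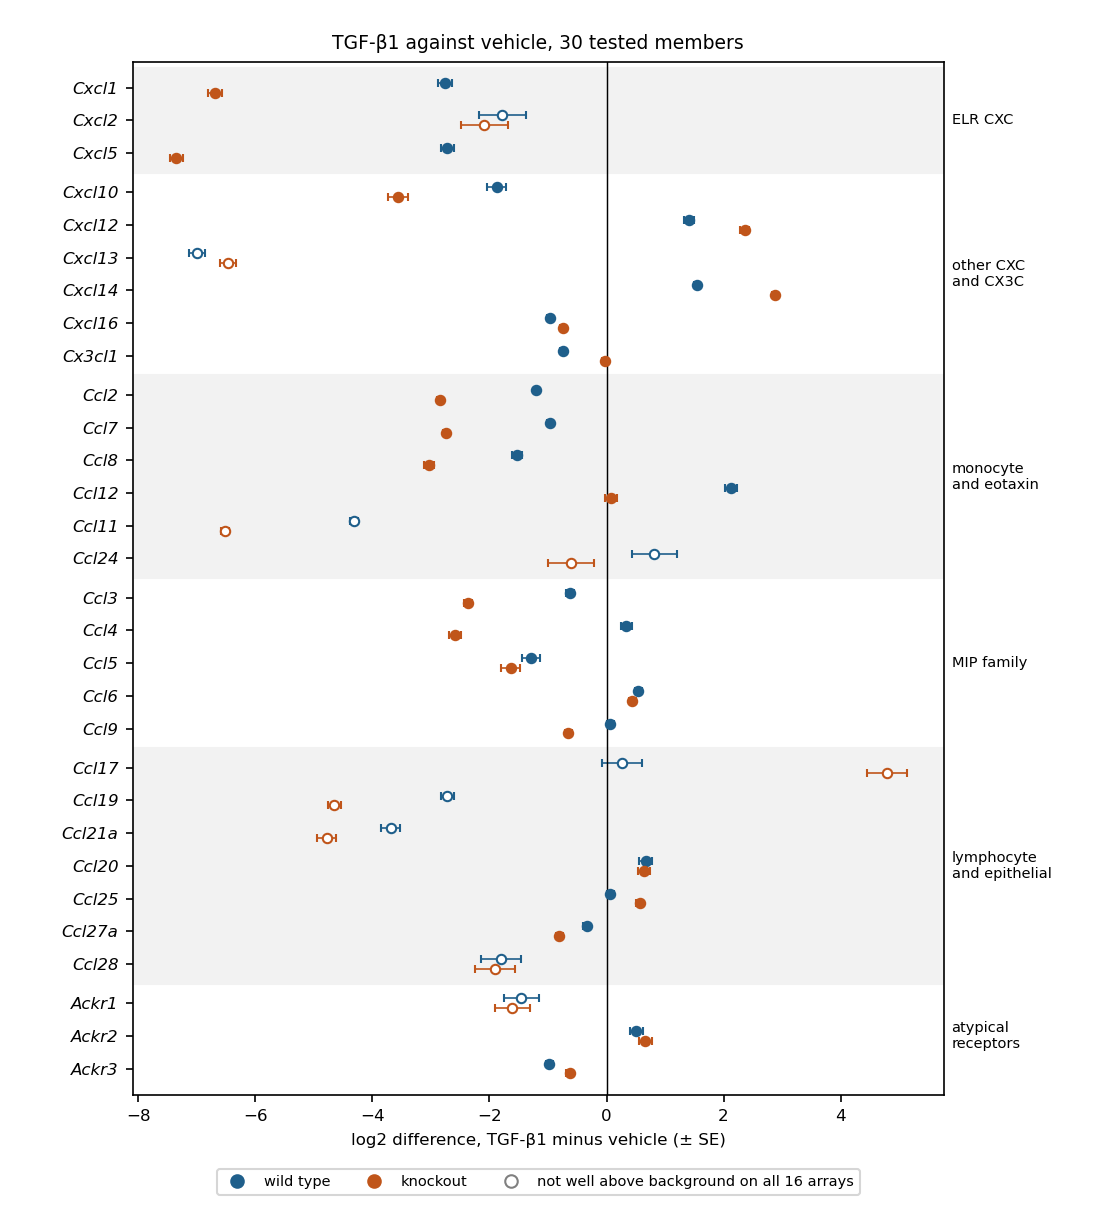
Log2 difference between TGF-β1 and vehicle (x axis, ± SE) for the 30 tested genes (y axis, by role) in wild type (blue) and knockout cells (orange); open circles mark genes not well above background on all 16 arrays. Cxcl1 and Cxcl5 sit at -2.76 and -2.72 in wild type cells and at -6.69 and -7.35 in knockout cells, while Cxcl12 and Cxcl14 lie to the right of 0 in both.

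The neutrophil-drawing CXC chemokines with the ELR motif fell in both genotypes: all 3 tested, Cxcl1, Cxcl2 and Cxcl5, were lower with TGF-β1, with a median of -2.72 in wild type and -6.69 in knockout cells. Beside this and the gene groups below, 41.3% of all genes rose and 27.3% fell in wild type cells. The shares in knockout cells were 46.6% and 35.9%. Cxcl3 and the lung-specific Cxcl15 were at background. Cxcl1 encodes KC, a main mouse neutrophil attractant. On the wild type arrays it read 11.83, 11.62, 11.48 and 11.66 with vehicle and 8.97, 8.91, 8.87 and 8.82 with TGF-β1. On the knockout arrays it read 11.55, 11.67, 11.69 and 11.71 with vehicle and 5.16, 4.51, 5.05 and 5.14 with TGF-β1. The vehicle groups overlapped, and every treated knockout array lay far below every treated wild type array. The response was -2.76 ± 0.12 (SE) log2 units or 6.75-fold in wild type (adjusted p = 2.73e-11) and -6.69 ± 0.12 or 103-fold in knockout cells (adjusted p = 3.05e-16). The knockout response minus the wild type response was -3.94 ± 0.17 (adjusted p = 5.89e-11). With another background correction, normexp with an offset of 50, which compresses dim signal, the knockout difference was -4.93 and the difference between responses -2.37, both still past the threshold.

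Cxcl5, known as LIX, is another ligand of the neutrophil receptor CXCR2. In wild type cells its signal was 13.15, 13.01, 12.81 and 12.92 with vehicle and 10.22, 10.23, 10.30 and 10.24 with TGF-β1. In knockout cells it was 12.43, 12.60, 12.66 and 12.57 with vehicle and 5.17, 5.64, 5.02 and 5.03 with TGF-β1. No groups overlapped, and the treated knockout arrays were the lowest. The response was -2.72 ± 0.11 or 6.61-fold in wild type and -7.35 ± 0.11 or 163-fold in knockout cells (adjusted p = 2.03e-11 and 8.71e-17). That is a difference between responses of -4.63 ± 0.16 (adjusted p = 7.81e-12), or -3.00 with normexp. Cxcl2, or MIP-2, was dim: it ranged from 4.60 to 5.07 on wild type vehicle and from 3.95 to 4.66 on knockout vehicle arrays, and was at background on all 8 treated arrays. It was thus at least 1.91-fold lower with TGF-β1 in wild type (adjusted p = 0.00112) and at least 1.22-fold lower in knockout cells (adjusted p = 0.000194), and neither passed within the second slide alone (adjusted p = 0.0553 and 0.116). Such a bound sets the bright group's mean against a floor for the dim group. On each array the floor is the lowest signal of any measured probe, or the reading of the dim probe where that is higher. These bounds hold only under the background subtraction used here. With normexp the fitted wild type responses were smaller, at -0.17 for Cxcl2, -3.02 for Cxcl13, -1.01 for Ccl19 and -0.21 for Ackr1.

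**Figure D2:**
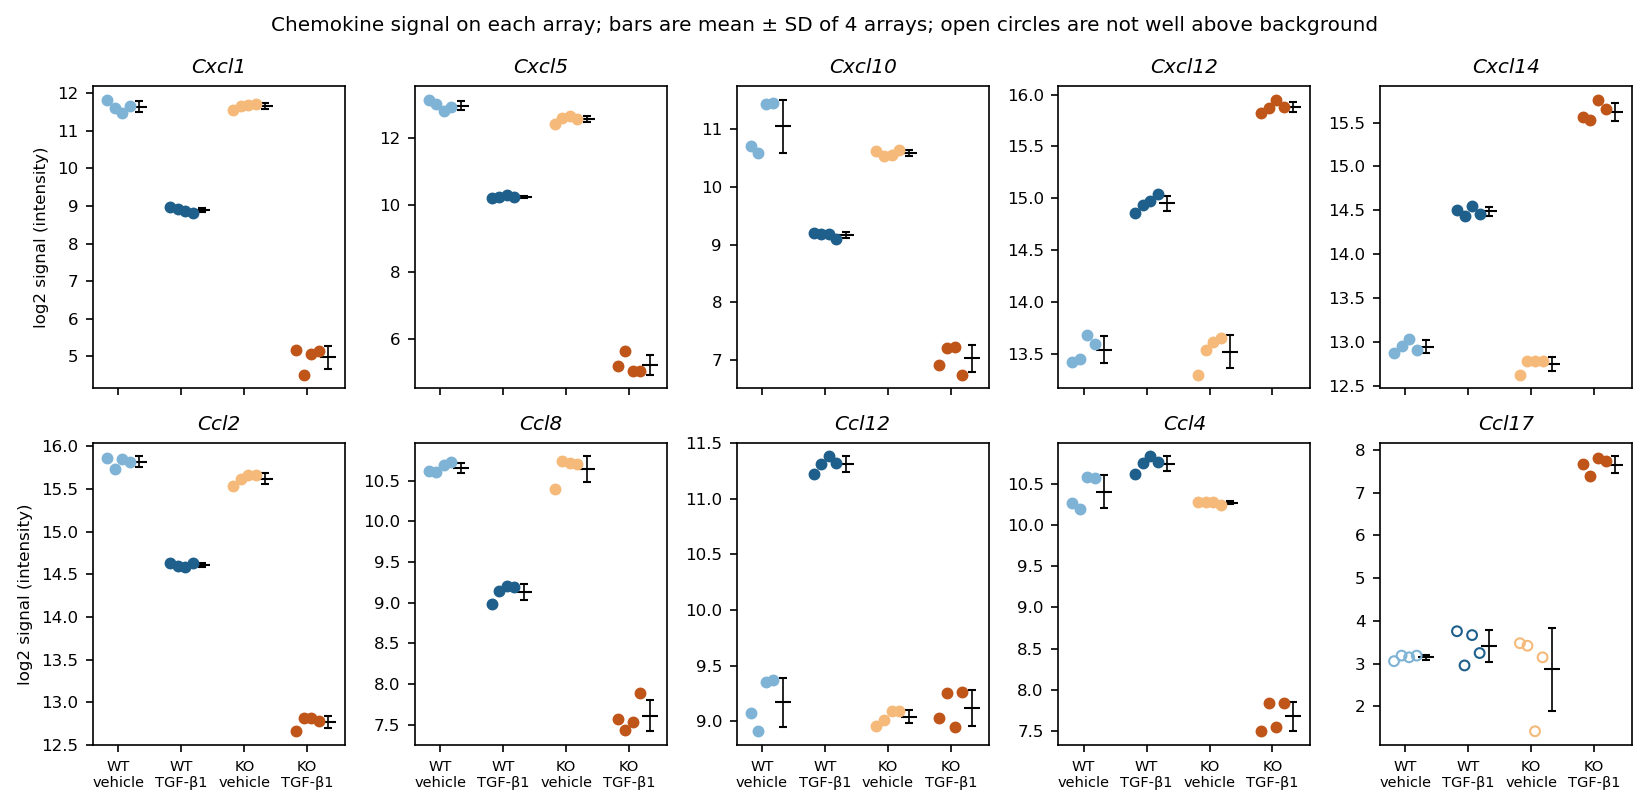
Log2 signal (y axis, a separate range in each panel) of 10 chemokines on the 16 arrays, by group (x axis; WT is wild type, KO is knockout); bars are the mean ± SD of 4 arrays and open circles are not well above background. The treated knockout arrays sit between 4.51 and 5.16 for Cxcl1 and between 12.66 and 12.82 for Ccl2, below all other arrays, and between 7.39 and 7.81 for Ccl17, above all others.

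Among the other CXC chemokines and Cx3cl1, both directions occurred. Of 6 tested, 2 rose and 4 fell in wild type cells, and 2 rose and 3 fell in knockout cells. Cxcl10, the interferon-induced ligand of CXCR3 on activated T cells, fell in both. Wild type vehicle arrays read 10.71, 10.59, 11.43 and 11.46 and treated ones 9.20, 9.19, 9.18 and 9.09. Knockout arrays read 10.62, 10.54, 10.56 and 10.64 with vehicle and 6.92, 7.21, 7.22 and 6.75 with TGF-β1. Treated arrays lay below vehicle arrays in each genotype, and the wild type vehicle arrays split by slide, the 2 of the first slide being lower. The response was -1.88 ± 0.17 in wild type and -3.56 ± 0.17 in knockout cells (adjusted p = 1.36e-07 and 2.79e-11), and the responses differed by -1.68 ± 0.24 (adjusted p = 2.84e-05). Within the first and second slide alone that difference was -2.05 and -1.30. Cxcl9 was at background on all 16 arrays.

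Cxcl13, the follicle chemokine that attracts B cells through CXCR5, was lost to background. It read 8.81 to 9.12 with vehicle in wild type and 8.32 to 8.44 in knockout cells, and was not well above background on any treated array. The fall was at least 34.5-fold in wild type and at least 20.3-fold in knockout cells (adjusted p = 6.26e-15 and 9.78e-16). Both treated groups sat at the floor, so how far the responses differ cannot be read from the fitted 0.53. Cxcl16, a membrane-anchored ligand of CXCR6, differed by -0.97 ± 0.05 in wild type and -0.74 ± 0.05 in knockout cells (adjusted p = 6.91e-10 and 5.08e-09), and a dimmer second probe by -1.55 and -1.28. Cx3cl1, the adhesion ligand of CX3CR1, ranged from 9.65 to 9.84 with vehicle and 8.98 to 9.12 with TGF-β1 in wild type, a response of -0.74 ± 0.05 (adjusted p = 3.90e-09). In knockout cells it ranged from 9.45 to 9.52 and 9.39 to 9.50, a response of -0.03 ± 0.05 (adjusted p = 0.540). Those 2 responses differed by 0.71 ± 0.07 (adjusted p = 5.75e-07).

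Cxcl12 and Cxcl14 were the chemokines of this family that rose. Cxcl12, or SDF-1, holds and attracts cells that carry CXCR4. On its main probe, which matches the transcript NM_001012477, the wild type arrays read 13.42, 13.45, 13.68 and 13.60 with vehicle and 14.86, 14.94, 14.97 and 15.04 with TGF-β1. The knockout arrays read 13.30, 13.54, 13.61 and 13.65 with vehicle and 15.82, 15.87, 15.95 and 15.88 with TGF-β1. All treated arrays were above all vehicle arrays, and the treated knockout arrays were the highest. The rise was 1.41 ± 0.08 or 2.66-fold in wild type and 2.36 ± 0.08 or 5.13-fold in knockout cells (adjusted p = 3.52e-10 and 2.54e-13), with a difference of 0.94 ± 0.11 (adjusted p = 2.69e-06). A second probe, on the transcript NM_021704, gave -0.05 and 0.25, with group means between 14.11 and 14.36. The main probe was the brighter over all arrays, but with vehicle the second was brighter. It averaged 14.26 against 13.54 in wild type and 14.11 against 13.52 in knockout vehicle cells. The rise of Cxcl12 was therefore seen on 1 of its 2 bright probes, and the mean over probes gave 0.68 and 1.30.

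Cxcl14, a chemokine made by many epithelial and stromal cells, read 12.88, 12.96, 13.04 and 12.91 with vehicle and 14.50, 14.44, 14.55 and 14.46 with TGF-β1 in wild type cells. In knockout cells it read 12.63, 12.78, 12.79 and 12.79 with vehicle and 15.56, 15.53, 15.76 and 15.65 with TGF-β1. Groups did not overlap. The rise was 1.54 ± 0.05 in wild type and 2.88 ± 0.05 in knockout cells (adjusted p = 3.94e-12 and 7.22e-16), and the responses differed by 1.34 ± 0.08 (adjusted p = 2.07e-09). A dim second probe, on the predicted transcript XM_006517307 and well above background on 11 arrays, gave 0.05 and 1.19.

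**Figure D3:**
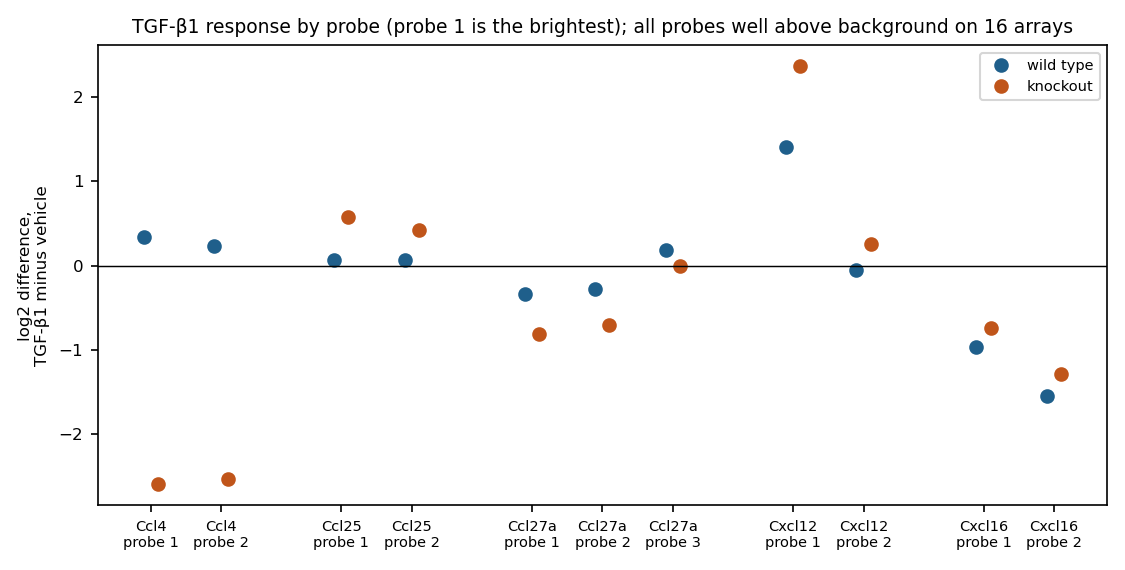
Log2 difference between TGF-β1 and vehicle (y axis) in wild type (blue) and knockout cells (orange) for each probe of the 5 genes that have several probes well above background on all 16 arrays (x axis, probe 1 the brightest over all arrays). The 2 probes of Cxcl16 are both below 0, at -0.97 and -1.55 in wild type cells, and those of Ccl4 both above 0 in wild type and below 0 in knockout cells. The 2 probes of Cxcl12 read 1.41 and -0.05 in wild type cells, and probe 3 of Ccl27a reads 0.18 where its first reads -0.34.

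The monocyte chemoattractants Ccl2, Ccl7 and Ccl8 fell in both genotypes, further in knockout cells, while Ccl12 rose in wild type and differed by 0.08 in knockout cells. Of the 6 tested in this group with the eotaxins, 1 rose and 4 fell in wild type cells, and 0 rose and 4 fell in knockout cells, with medians of -1.09 and -2.80. Ccl2, or MCP-1, the main ligand of CCR2 on inflammatory monocytes, was bright throughout. It read 15.86, 15.73, 15.85 and 15.82 with vehicle and 14.63, 14.60, 14.59 and 14.63 with TGF-β1 in wild type cells. In knockout cells it read 15.53, 15.61, 15.66 and 15.66 with vehicle and 12.66, 12.81, 12.82 and 12.78 with TGF-β1. Groups did not overlap, and the treated knockout arrays were the lowest. The response was -1.20 ± 0.04 or 2.30-fold in wild type and -2.85 ± 0.04 or 7.21-fold in knockout cells (adjusted p = 4.15e-12 and 7.94e-17), and the responses differed by -1.65 ± 0.06 (adjusted p = 1.51e-11).

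Ccl7, or MCP-3, lies next to Ccl2 and binds some of the same receptors. It ranged from 13.68 to 13.84 with vehicle and 12.76 to 12.82 with TGF-β1 in wild type cells, and from 13.34 to 13.56 and 10.70 to 10.78 in knockout cells. The responses were -0.97 ± 0.05 and -2.75 ± 0.05 log2 units (adjusted p = 1.81e-10 and 3.45e-16), with a difference between responses of -1.78 ± 0.07 (adjusted p = 2.28e-11). Ccl8, or MCP-2, read 10.62, 10.61, 10.70 and 10.73 with vehicle and 8.99, 9.14, 9.21 and 9.19 with TGF-β1 in wild type cells. It read 10.40, 10.74, 10.72 and 10.71 with vehicle and 7.57, 7.44, 7.54 and 7.89 with TGF-β1 in knockout cells. Vehicle groups overlapped and treated groups did not. The responses were -1.53 ± 0.09 and -3.03 ± 0.09 log2 units (adjusted p = 1.65e-09 and 1.64e-13), and they differed by -1.50 ± 0.13 (adjusted p = 1.96e-07).

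Ccl12, or MCP-5, is a rodent CCR2 ligand beside Ccl8. On wild type arrays it read 9.07, 8.91, 9.35 and 9.37 with vehicle and 11.22, 11.31, 11.38 and 11.32 with TGF-β1. On knockout arrays it read 8.96, 9.01, 9.09 and 9.09 with vehicle and 9.03, 9.25, 8.95 and 9.26 with TGF-β1. The treated wild type arrays stood above the other 12, which overlapped. The rise in wild type was 2.13 ± 0.10 or 4.39-fold (adjusted p = 5.84e-11), and the difference in knockout cells was 0.08 ± 0.10 (adjusted p = 0.424). The difference between the responses was -2.05 ± 0.14 (adjusted p = 9.68e-09), and it was -2.12 within the first slide and -1.98 within the second.

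The eotaxins draw eosinophils through CCR3. Ccl11, or eotaxin-1, read 8.53, 8.53, 8.52 and 8.46 with vehicle and 4.04, 4.20, 4.24 and 4.25 with TGF-β1 in wild type cells. That response was -4.32 ± 0.07 (adjusted p = 2.06e-15), or -2.46 with normexp. In knockout cells it ranged from 8.04 to 8.39 with vehicle and was at background on all 4 treated arrays, at least 18.9-fold lower (adjusted p = 3.27e-18). The fitted difference between responses, -2.20 ± 0.10, was -0.06 with normexp and no longer passed. Ccl24, or eotaxin-2, was well above background on all 4 arrays of treated wild type cells alone, at 4.17 to 4.58. On the wild type vehicle, knockout vehicle and treated knockout arrays it was so on 2, 1 and 0 of 4. It was at least 1.27-fold lower in treated knockout than in treated wild type cells (adjusted p = 0.00239), which did not pass within the second slide alone (adjusted p = 0.0776). Ccl24 passed the filter only through the treated wild type group, so p-values that involve that group add no separate support. Its wild type response, 0.82 ± 0.39, missed the threshold (adjusted p = 0.0741) and passed without knockout TGF-β1 replicate 1 or 4 in the fit (adjusted p = 0.0351 and 0.0250). Its knockout response, -0.61 ± 0.39 (adjusted p = 0.159), was -1.01 without replicate 4 (adjusted p = 0.0101), and the fitted difference between responses, -1.42 ± 0.55 (adjusted p = 0.0371), lost its call in 10 of the 16 omissions of 1 array.

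The macrophage inflammatory protein family, which draws monocytes and T cells, gave no single direction in wild type cells: 2 of 5 rose and 2 fell, with a median of 0.06. In knockout cells 1 rose and 4 fell, with a median of -1.64. The shares of all genes that rose and fell were 41.3% and 27.3% in wild type and 46.6% and 35.9% in knockout cells. Ccl3, or MIP-1α, read 11.23, 11.14, 11.42 and 11.48 with vehicle and 10.61, 10.67, 10.74 and 10.70 with TGF-β1 in wild type cells. It read 10.93, 10.85, 10.87 and 10.91 with vehicle and 8.55, 8.64, 8.35 and 8.54 with TGF-β1 in knockout cells. No groups overlapped. The response was -0.63 ± 0.07 in wild type and -2.37 ± 0.07 in knockout cells (adjusted p = 1.69e-06 and 1.41e-13), and the responses differed by -1.74 ± 0.10 (adjusted p = 2.35e-09).

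Ccl4, or MIP-1β, is the neighbour of Ccl3 and moved opposite ways in the genotypes. It read 10.26, 10.19, 10.58 and 10.57 with vehicle and 10.62, 10.75, 10.83 and 10.76 with TGF-β1 in wild type cells. It read 10.28, 10.28, 10.28 and 10.24 with vehicle and 7.5, 7.84, 7.55 and 7.84 with TGF-β1 in knockout cells. The treated knockout arrays were far below the other 12. The rise in wild type was 0.34 ± 0.10 or 1.26-fold (adjusted p = 0.00581), though 0.46 within the first slide and 0.22 within the second, where it did not pass (adjusted p = 0.0921), and the response in knockout cells was -2.59 ± 0.10 or 6.02-fold (adjusted p = 1.46e-12). The responses differed by -2.93 ± 0.14 (adjusted p = 1.66e-10), and a second probe gave 0.23, -2.53 and -2.76 for the 3 quantities.

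Ccl5, or RANTES, ranged from 6.89 to 7.79 with vehicle and 5.89 to 6.25 with TGF-β1 in wild type cells, and from 6.67 to 6.89 and 4.97 to 5.35 in knockout cells. Its responses were -1.29 ± 0.16 and -1.64 ± 0.16 (adjusted p = 3.81e-06 and 1.26e-07), and the difference between the responses, -0.35 ± 0.22, did not pass (adjusted p = 0.192). Ccl6 and Ccl9 are rodent CCR1 ligands that macrophages make. Ccl6 rose by 0.54 ± 0.06 in wild type and 0.44 ± 0.06 in knockout cells, but with quantile normalization the knockout difference was -0.10 (adjusted p = 0.0831). Ccl9 differed by 0.06 ± 0.06 in wild type (adjusted p = 0.366) and by -0.65 ± 0.06 in knockout cells (adjusted p = 2.80e-08). Its responses differed by -0.71 ± 0.08 (adjusted p = 2.11e-06).

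Macrophages also make many of the monocyte and macrophage inflammatory chemokines, and their markers moved in the same comparisons. Of 12 macrophage and leukocyte markers, 2 rose and 8 fell in wild type cells and 2 rose and 9 fell in knockout cells. Over all genes 41.3% rose and 27.3% fell in wild type cells, and 46.6% rose and 35.9% fell in knockout cells. The summed linear signal of the list was 104000 to 122000 on wild type vehicle, 73200 to 76800 on treated wild type, 89500 to 94600 on knockout vehicle and 55900 to 60600 on treated knockout arrays. Mrc1, the mannose receptor of resident macrophages, differed by -0.76 and -2.67 in wild type and knockout cells, while Csf1r, the receptor that macrophages need for survival, differed by -0.44 and -0.28. The 2 that rose were Marco (0.85) and Fcgr1 (0.73) in wild type cells, and Marco (1.93) and Itgam (0.32) in knockout cells. The part of these cells in the chemokine results was not tested.

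**Figure D4:**
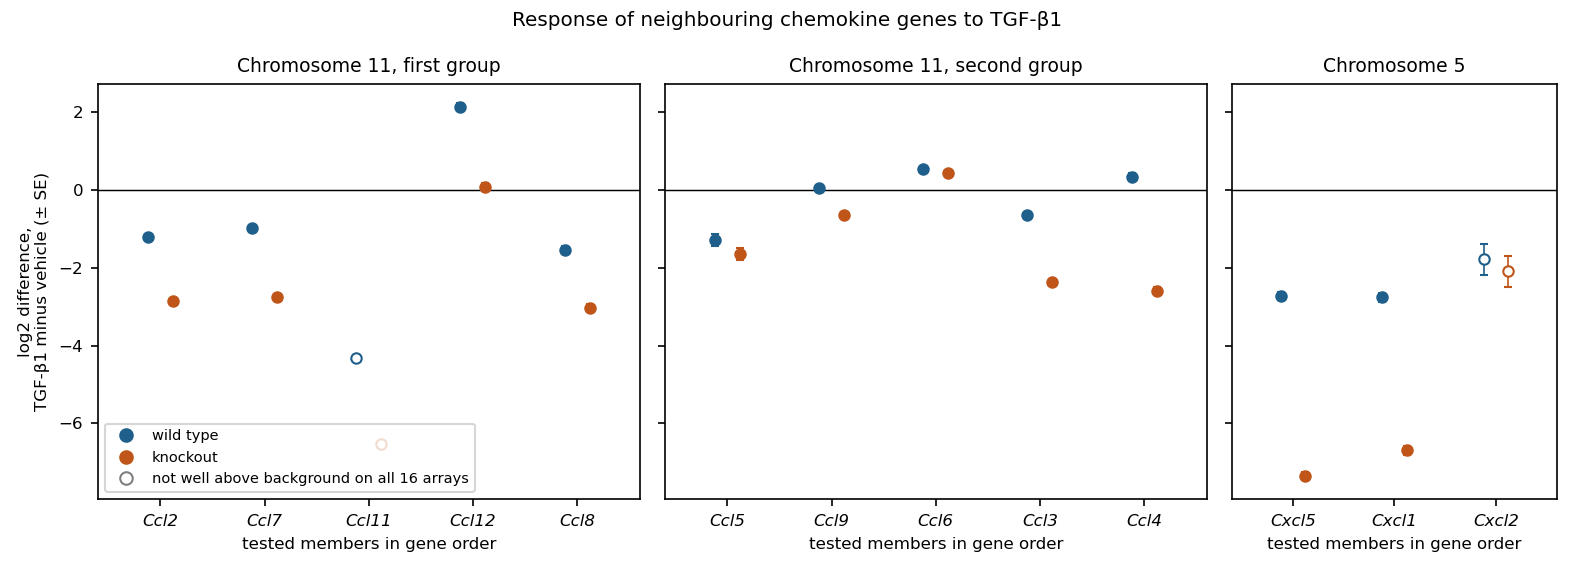
Log2 difference between TGF-β1 and vehicle (y axis, ± SE) in wild type (blue) and knockout cells (orange) for tested chemokine genes in their order on the chromosome (x axis); open circles mark genes not well above background on all 16 arrays. Ccl12 reads 2.13 in wild type cells between Ccl11 at -4.32 and Ccl8 at -1.53, and Ccl4 reads 0.34 beside Ccl3 at -0.63.

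Neighbouring genes did not all move the same way. On chromosome 11 the order is Ccl2, Ccl7, Ccl11, 1 other gene, Ccl12, Ccl8 and Ccl1, and 1 of the 5 tested there rose in wild type cells while its neighbours on both sides fell. A second run on the same chromosome holds Ccl5, Ccl9, Ccl6, Ccl3 and Ccl4, of which Ccl6 rose in both genotypes, and Ccl4 rose in wild type and fell in knockout cells. The knockout rise of Ccl6 did not hold with quantile normalization, and the wild type rise of Ccl4 did not pass within the second slide alone. On chromosome 5, Cxcl5, Cxcl3, Cxcl15, Cxcl1 and Cxcl2 lie close together, and all 3 tested fell in both genotypes. On chromosome 8, Cx3cl1 lies between Ccl22 and Ccl17 with 1 gene on each side, and on chromosome 4 Ccl19 adjoins Ccl21a.

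Of the 7 tested CC chemokines that guide lymphocytes and dendritic cells or serve epithelia, 1 rose and 4 fell in wild type cells, and 3 rose and 4 fell in knockout cells. The shares of all genes that rose and fell were 41.3% and 27.3% in wild type and 46.6% and 35.9% in knockout cells. Ccl17, or TARC, is a ligand of CCR4 on type 2 helper and regulatory T cells. It was at background on all 12 arrays of the other groups, where it read 1.42 to 3.76, and read 7.68, 7.39, 7.81 and 7.75 on the treated knockout arrays. It was therefore at least 15.5-fold higher with TGF-β1 than with vehicle in knockout cells (adjusted p = 3.79e-09) and at least 13.7-fold higher than in treated wild type cells (adjusted p = 3.69e-08). The difference in wild type, both groups being at background, was 0.26 ± 0.34 (adjusted p = 0.516), and the fitted difference between responses was 4.53 ± 0.49 (adjusted p = 1.66e-06), or 1.82 with normexp. Ccl17 passed the filter only through the treated knockout group, so the p-values that involve that group add no separate support. Ccl22, the other CCR4 ligand, is the gene seen on 1 treated knockout array only, and Ccr4 itself was at background throughout.

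Ccl19 and Ccl21a, the CCR7 ligands that draw dendritic cells and T cells to lymphatics and lymph nodes, both fell. Ccl19 ranged from 6.53 to 6.73 with vehicle in wild type cells and was well above background on 2 of 4 treated arrays, at least 6.13-fold lower (adjusted p = 1.84e-11). In knockout cells it ranged from 6.32 to 6.81 with vehicle and was on none of the treated arrays above background, at least 5.65-fold lower (adjusted p = 9.03e-15). Ccl21a read 9.74, 9.83, 9.80 and 9.67 with vehicle and 6.15, 5.89, 6.32 and 5.91 with TGF-β1 in wild type cells. It read 9.41, 9.24, 9.24 and 9.23 with vehicle and 4.5, 4.97, 4.58 and 3.96 with TGF-β1 in knockout cells, where 3 of the 4 treated arrays were well above background. Groups did not overlap. The response was -3.69 ± 0.16 or a 12.9-fold fall in wild type (adjusted p = 2.66e-11) and at least 26.8-fold in knockout cells (adjusted p = 3.31e-13). The fitted differences between responses, -1.93 for Ccl19 and -1.09 for Ccl21a, were both -0.04 with normexp and did not pass there. Ccl21a has near-identical copies in the mouse genome, so its probe may read more than 1 gene.

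Lymphatic endothelium is a main source of Ccl21, and 2 of its 3 markers fell in each genotype. Of all genes, 27.3% fell in wild type and 35.9% in knockout cells. Lyve1, a lymphatic hyaluronan receptor, differed by -1.02 in wild type and -1.78 in knockout cells, and Prox1, the regulator of lymphatic identity, by -1.23 and -1.43. Flt4, a lymphatic growth factor receptor, differed by -0.31 and -0.10 (adjusted p = 0.122 and 0.606). Of 9 other endothelial markers all 9 fell in both genotypes, with summed signals of 4880 to 5210, 2210 to 2340, 4390 to 4550 and 1460 to 1550 on wild type vehicle, treated wild type, knockout vehicle and treated knockout arrays. The part of these cells was not tested.

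Differences were small in the epithelial chemokines that were well above background on every array. Ccl20, the CCR6 ligand, ranged from 5.50 to 5.76 and 6.21 to 6.35 in wild type and from 5.09 to 5.68 and 5.83 to 6.14 in knockout cells, vehicle first. It rose by 0.67 ± 0.11 and 0.64 ± 0.11 (adjusted p = 6.43e-05 and 6.76e-05). Ccl25, the CCR9 ligand of thymus and gut, differed by 0.06 ± 0.06 in wild type (adjusted p = 0.388) and rose by 0.57 ± 0.06 in knockout cells (adjusted p = 5.64e-07). Its dimmer probes gave 0.42 and -0.13 in knockout cells, the latter probe being well above background on 14 of the 16 arrays. Ccl27a, a skin chemokine that binds CCR10, differed by -0.34 ± 0.06 and -0.81 ± 0.06 on its main probe (adjusted p = 0.000127 and 4.54e-09), while its dimmest probe gave 0.18 and 0.00, and Ccl27b is a near copy that the probes may also read. Ccl28, a mucosal ligand of the same receptor, was dim at 3.92 to 4.15 on wild type vehicle arrays. It was at background on all 8 treated arrays, at least 1.13-fold lower in wild type (adjusted p = 0.000277), which did not pass within the first slide alone (adjusted p = 0.0704). Its fitted knockout response was -1.90 ± 0.34, or 0.00 with normexp. Ccl28 passed the filter only through the wild type vehicle group, so the wild type p-values add no separate support. A second Ccl28 probe was not well above background on any array.

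Of the atypical receptors, 1 rose and 2 fell in each genotype. Ackr3, formerly CXCR7, takes up CXCL12 and is bright in these cells. It read 10.70, 10.57, 10.61 and 10.70 with vehicle and 9.74, 9.65, 9.57 and 9.71 with TGF-β1 in wild type cells, and 10.73, 10.81, 10.79 and 10.73 with vehicle and 10.10, 10.28, 9.99 and 10.16 with TGF-β1 in knockout cells. Treated arrays were below vehicle arrays in both, less so in the knockout. The responses were -0.98 ± 0.06 and -0.63 ± 0.06 log2 units (adjusted p = 9.35e-10 and 5.46e-08), and they differed by 0.35 ± 0.08 (adjusted p = 0.00180), which did not pass within the first slide alone (0.36, adjusted p = 0.0574). Ackr2, a scavenger of inflammatory CC chemokines, rose by 0.51 ± 0.11 and 0.66 ± 0.11 (adjusted p = 0.00102 and 7.30e-05). Its wild type difference was 0.74 within the first slide and 0.28 within the second, where it did not pass (adjusted p = 0.124). A second Ackr2 probe was not well above background on any array. Ackr1, the Duffy antigen of red cells and venules, ranged from 4.32 to 4.67 on wild type and 4.26 to 4.73 on knockout vehicle arrays and was at background on all 8 treated arrays. It was at least 1.60-fold lower in wild type and at least 1.37-fold lower in knockout cells (adjusted p = 0.000466 and 0.000135), and within the second slide alone the wild type fall did not pass (adjusted p = 0.0801). A second Ackr1 probe was well above background on 2 wild type vehicle arrays only. Ackr4, which takes up CCL19 and CCL21, was not tested.

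Knockout against wild type cells with vehicle asked whether these genes differed between the genotypes without added TGF-β1. Of the 30 tested, 0 rose and 11 fell in limma, where 13.2% of all genes changed, 7.07% upward and 6.16% downward. None of the 11 differed by 2-fold, where 0.065% of all genes were higher and 0.247% lower by that much, and at an unadjusted p under 0.05 the counts were 2 rises and 15 falls. The median was -0.20 over the 30 and 0.03 over all genes. The lower genes were Cxcl5, Cxcl13, Cxcl14, Cx3cl1, Ccl2, Ccl3, Ccl5, Ccl6, Ccl7, Ccl9 and Ccl11. The largest difference was in Cxcl13, -0.61 ± 0.13 (adjusted p = 0.00530), followed by Ccl5 at -0.60 ± 0.16 (adjusted p = 0.0207), whose groups overlapped, and Ccl3 at -0.42 ± 0.07 (adjusted p = 0.00124). Ccl2 differed by -0.20 ± 0.04 (adjusted p = 0.00682).

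These vehicle calls depended on the arrays. Within the first slide 0 of the 30 fell at the adjusted threshold and 11 at the unadjusted one, and within the second slide 7 fell. Those 7 included Cxcl10 (-0.85, adjusted p = 0.0275 in limma), which was not among the 11 called on all 16 arrays. Without wild type vehicle replicate 3, or without knockout vehicle replicate 1, 7 fell. Of the 11, Cxcl13, Cx3cl1, Ccl2, Ccl3, Ccl6 and Ccl7 kept the call whichever array was left out, and the other 5 lost it at least once, Ccl11 in 12 of the 16 omissions. Macrophage markers were lower as well, 4 of 12 past the threshold, where 6.16% of all genes were lower, and their part was not tested.

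**Figure D5:**
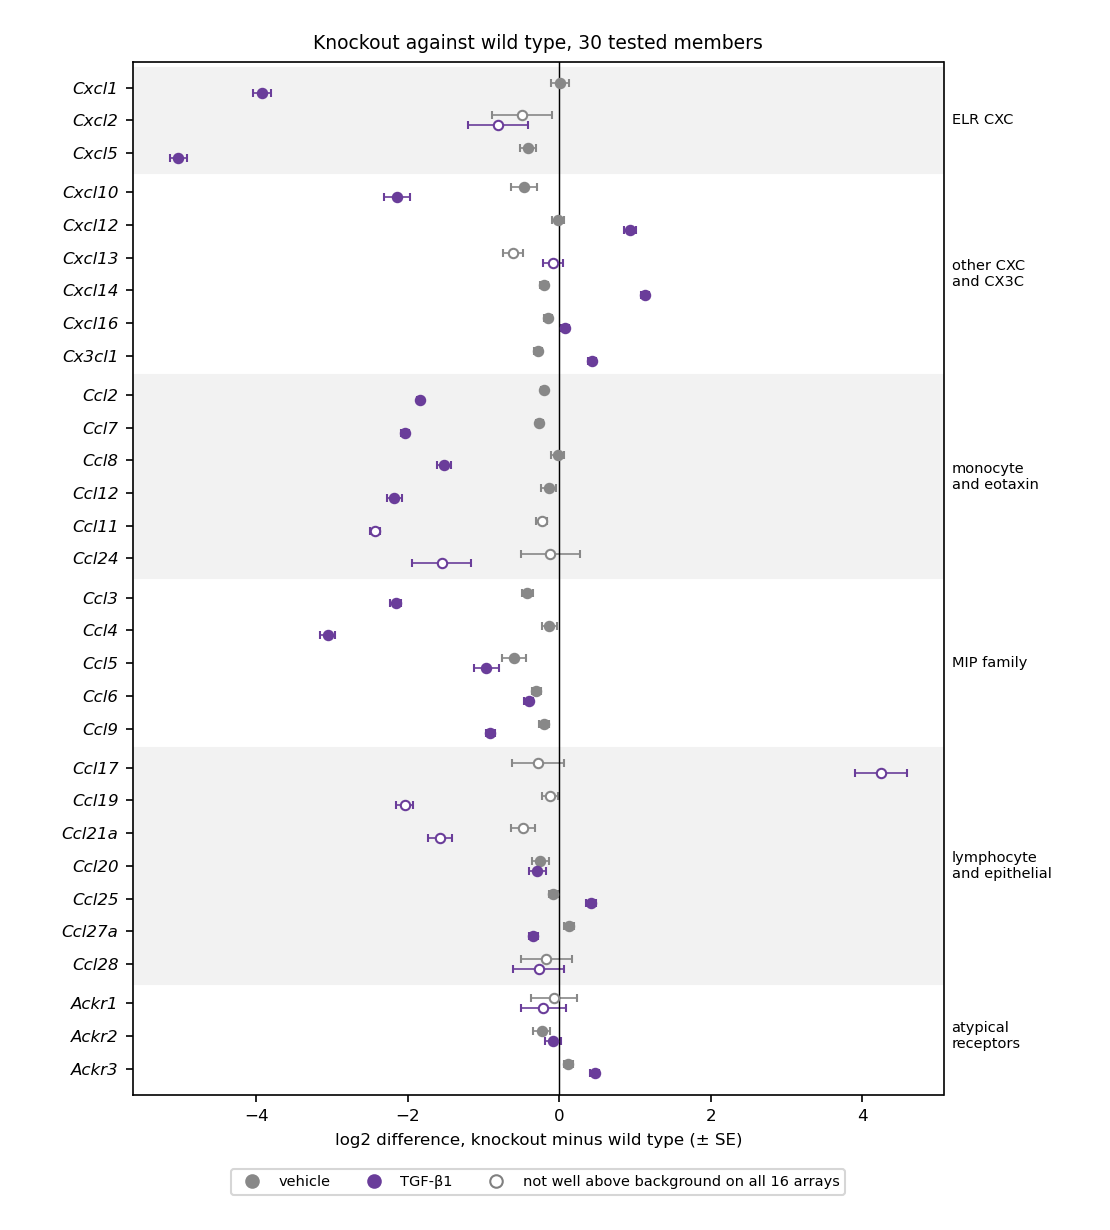
Log2 difference between knockout and wild type cells (x axis, ± SE) for the 30 tested genes (y axis, by role) with vehicle (grey) and with TGF-β1 (purple); open circles mark genes not well above background on all 16 arrays. The grey points lie between -0.61 and 0.13, and the purple ones run from -5.03 for Cxcl5 to 4.25 for Ccl17.

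Knockout against wild type cells under TGF-β1 gave 6 genes higher and 18 lower in the knockout, where 70.2% of all genes differed, 39.6% upward and 30.5% downward. At a fitted size of 2-fold or more, 2 were higher and 13 lower, where 3.31% and 7.02% of all genes were. Over the 21 genes measured on every array 5 were higher and 14 lower, 1 and 9 of them at 2-fold. The median was -0.86 over the 30, -0.91 over the 21 measured on every array and 0.06 over all genes. All 6 tested monocyte chemoattractants and eotaxins were lower in the knockout, though Ccl11 and Ccl24 were at background there and their bounds were 1.11-fold and 1.27-fold, and so were all 5 tested genes of the macrophage inflammatory family, from -0.40 to -3.06. Of the 3 tested ELR chemokines Cxcl1 and Cxcl5 were lower, at -3.93 ± 0.12 or 15.2-fold and -5.03 ± 0.11 or 32.7-fold (adjusted p = 4.31e-13 and 2.84e-14). Both Cxcl2 groups were at background. Ccl4 was lower by 8.33-fold (-3.06 ± 0.10, adjusted p = 7.76e-13), Ccl12 by 4.54-fold (-2.18 ± 0.10, adjusted p = 3.81e-11) and Ccl2 by 3.59-fold (-1.84 ± 0.04, adjusted p = 3.64e-14).

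The 6 genes higher in treated knockout than in treated wild type cells were Ccl17, Cxcl12, Cxcl14, Cx3cl1, Ccl25 and Ackr3. Cxcl14 was higher by 1.13 ± 0.05 or 2.19-fold (adjusted p = 1.01e-10) and Cxcl12 by 0.93 ± 0.08 or 1.91-fold on its main probe (adjusted p = 3.65e-08), against 0.14 on its second. Cx3cl1, Ccl25 and Ackr3 were higher by 0.43, 0.42 and 0.47. The dimmer probes of Ccl25 gave 0.16 and -0.12, and its mean over probes, 0.15, did not pass in limma (adjusted p = 0.0629). Cell type markers differed here too, and their part was not tested. Over all genes 39.6% were higher and 30.5% lower in treated knockout cells. Of the 12 macrophage markers 1 was higher and 8 were lower in treated knockout cells, and of 9 endothelial markers 6 were lower. Of 5 mesothelial markers 1 was higher, Krt19 at 1.11, and 4 were lower, with Upk3b at -2.57. The mesothelial sums were 11000 to 12500 against 19900 to 21000 in treated wild type cells. Of 10 fibroblast markers 2 were higher and 5 lower, with Vim at 0.29, Pdgfra at -1.66 and sums of 478000 to 516000 against 520000 to 542000. Of 5 pericyte and smooth muscle markers 3 were higher and 2 lower, with Cspg4 at 2.91, Kcnj8 at -0.89 and sums of 3740 to 4020 against 2820 to 2930. This comparison and the TGF-β1 comparisons share arrays, so the counts above are not independent of one another.

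The receptors that read these chemokines were followed as a list of 19 genes, of which 10 could be tested and 6 were at background on every array. In each genotype 3 rose and 6 fell, with medians of -0.94 and -1.11. Over all genes 41.3% rose and 27.3% fell in wild type cells, and 46.6% rose and 35.9% fell in knockout cells. Cxcr1, which reads ELR chemokines, differed by -3.62 ± 0.07 in wild type cells, and Cxcr2, their main receptor, was at least 5.64-fold lower, with 3 of 4 treated arrays well above background. In knockout cells Cxcr1 differed by -3.52 ± 0.07, and Cxcr2 went to background on all 4 treated arrays, at least 3.98-fold lower. Cxcr4, the receptor of CXCL12, differed by -1.98 ± 0.08 and -1.36 ± 0.08 while its ligand's main probe rose (adjusted p = 1.40e-11 and 2.93e-10). Cx3cr1, the receptor of CX3CL1, rose by 1.87 ± 0.10 in wild type and 3.08 ± 0.10 in knockout cells (adjusted p = 2.79e-10 and 2.21e-13). Ccr2, the receptor of CCL2, CCL7 and CCL12, was well above background on 1 array.

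Genes that act before and after chemokine RNA were given as further lists. Of 15 NF-kB subunits, inhibitors and partners, 2 rose and 9 fell in wild type and 1 rose and 10 fell in knockout cells, with medians of -0.38 and -0.52. Over all genes 41.3% rose and 27.3% fell in wild type cells, and 46.6% rose and 35.9% fell in knockout cells. Nfkbia, the inhibitor that NF-kB itself induces, differed by -0.93 ± 0.04 and -1.37 ± 0.04, and Relb, a subunit, by -0.54 ± 0.04 and -1.37 ± 0.04. Tnfaip3, which encodes the brake A20, differed by -1.16 ± 0.05 in wild type and by -0.11 ± 0.05 in knockout cells. Rela, the main activating subunit, differed by 0.12 and 0.07.

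Of 16 receptors and adaptors for cytokines and microbial products that induce chemokines, 6 rose and 9 fell in wild type and 2 rose and 13 fell in knockout cells. Here and for the lists below, the shares of all genes that rose and fell were 41.3% and 27.3% in wild type cells. They were 46.6% and 35.9% in knockout cells. Il1r1, the interleukin-1 receptor, differed by -0.61 ± 0.07 and -2.10 ± 0.07, and its responses differed by -1.49 ± 0.10 (adjusted p = 7.84e-09). Tlr4, the endotoxin receptor, differed by -0.71 ± 0.07 and -1.71 ± 0.07. Il4ra, the receptor chain for interleukin-4 and interleukin-13, which induce Ccl11 and Ccl17, rose by 1.56 ± 0.05 and 0.84 ± 0.05. Of 5 factors that control the decay of chemokine RNA, 2 rose and 2 fell in wild type and 1 rose and 3 fell in knockout cells, Zfp36l1 differing by -0.08 ± 0.05 and -1.68 ± 0.05. Of 5 proteases that trim chemokines 1 rose and 4 fell in each genotype, and Dpp4, which clips CXCL12 and CCL11 among others, differed by -1.17 ± 0.05 and -3.21 ± 0.05 (adjusted p = 1.62e-11 and 6.33e-17). Of 3 chemokines with other names Pf4, which platelets and macrophages make, was the 1 tested. It rose by 0.41 ± 0.06 in wild type and differed by -1.24 ± 0.06 in knockout cells (adjusted p = 1.81e-05 and 2.86e-11).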

How the data were processed

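Total RNA of 16 samples, 4 in each of 4 groups, was hybridised to 1-colour Agilent arrays. Per the file headers, the deposited scanner files hold spot intensity on a linear scale, already background-subtracted, and per the submitters' processing notes they were read with Agilent Feature Extraction 11.0.1.1. A second table that the authors deposited holds log2 values of 9933 probes, whose normalization and choice of probes are not given in the sources used here. Each of its columns tracked log2 intensity of its array at r = 0.999 or more, with medians of 6.60 to 6.61 and 6.47 to 6.49 for wild type vehicle and TGF-β1 and of 6.57 to 6.59 and 6.38 to 6.39 for knockout.

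Log2 of processed intensity was shifted to a common 75th percentile on each array, control spots (not counted among the 59305) and 27 probes with outlier marks were left out, and spots of a probe were averaged; 0 spots were saturated. A probe was kept when marked well above background on each of the 4 arrays of some group (33888 of 56605), named through its transcript in RefSeq (32994 of all 56605), and the brightest kept probe stood for its gene. Differences were fitted with limma 3.58.1 in R 4.3.3 on all 16 arrays with 1 mean per group. The procedure was tested on simulated data. The number of arrays limits the precision.

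The genes and lists were chosen with earlier results of these data known. All genes of the rule are named; those past the threshold and at least 2-fold in any comparison are given by array or range, and from other lists up to about 4 genes are named. The rule for lists put small p first, and some list genes were named for their link to a chemokine after their values were seen. The ELR motif and the division of the CC chemokines by role were taken from textbook knowledge. Alternatives were normexp (offset 50), quantile normalization, the authors' table, no filter, the mean over probes, slide or replicate number as a block, each slide alone and each array left out. Some list genes are not reported here.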

Additional observations from a re-analysis of the deposited data

Results flagged for a closer look

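The responses to TGF-β1 differed between the genotypes by the limma interaction test in 23 of the 30 tested genes (knockout minus wild type response, log2). It was negative for Cxcl5 at -4.63, Cxcl1 at -3.94, Ccl4 at -2.93, Ccl11 at -2.20, Ccl12 at -2.05, Ccl19 at -1.93, Ccl7 at -1.78 and Ccl3 at -1.74. It was also negative for Cxcl10 at -1.68, Ccl2 at -1.65, Ccl8 at -1.50, Ccl24 at -1.42, Ccl21a at -1.09, Ccl9 at -0.71 and Ccl27a at -0.47. It was positive for Ccl17 at 4.53, Cxcl14 at 1.34, Cxcl12 at 0.94, Cx3cl1 at 0.71, Cxcl13 at 0.53, Ccl25 at 0.51, Ackr3 at 0.35 and Cxcl16 at 0.23. For Ccl11, Ccl19, Ccl24 and Cxcl13 the treated knockout arrays were at background, and for Ccl17 the 12 arrays of the other groups were, so these sizes are fitted values and not measured differences.

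In 9 of 101 groups of 4 arrays examined, 1 array stood apart from the other 3 by Dixon's test, and chance marks about 1 in 20 groups. Knockout vehicle replicate 1 did so for 3 genes: Cxcl14 at 12.63 against 12.78 to 12.79, Ccl8 at 10.40 against 10.71 to 10.74, and Ccl21a at 9.41 against 9.23 to 9.24. Treated wild type replicate 3 did so for Cx3cl1, at 9.12 against 8.98 to 8.99, and for Ccl20, at 6.35 against 6.21 to 6.23. Treated knockout replicate 2 had Cxcl1 at 4.51 against 5.05 to 5.16, and knockout vehicle replicate 4 had Ccl4 at 10.24 against 10.28 on the others. Wild type vehicle replicate 4 had Ccl11 at 8.46 against 8.52 to 8.53, and replicate 3 had Ackr1 at 4.32 against 4.61 to 4.67.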

How the results depend on the processing

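Of 3715 values of the 30 genes under the alternatives, 3591 kept their side of the threshold, 88 no longer passed, 30 newly passed and 6 turned sign while past it in at least 1 of the settings compared. Of the 3591, 3521 kept their direction and 70, past the threshold in neither setting, had the other sign or were 0.00. With normexp the turned values were 0.15 for Ccl24 and 0.00 for Ccl28 in the knockout response, and 0.16 for Ccl28 and 0.17 for Ackr1 between genotypes under TGF-β1. The knockout response of Ccl6 was -0.10 with quantile normalization, and Cxcl13 between genotypes under TGF-β1 was 0.43 in the authors' table. In that table, which holds 23 of the genes, 3 rose in knockout cells and 5 interactions were positive, as were 5 within the first slide. The count of 11 vehicle falls in the knockout became 0 within the first slide (limma, 11 at an unadjusted p under 0.05). It became 7 within the second, and these included Cxcl10, which was not among the 11 called on all arrays. The count was also 7 without wild type vehicle replicate 3 or knockout vehicle replicate 1. Leaving out 1 array gave 7 to 8 rises and 19 falls in wild type, 7 rises and 20 to 21 falls in knockout cells, 0 rises and 7 to 11 falls between genotypes with vehicle, 6 and 17 to 19 under TGF-β1, and 8 and 14 to 15 for the interaction.

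With quantile normalization and in the authors' table the median of all genes moved from 0.08 to 0.02 and -0.31 in wild type and from 0.10 to -0.01 and -0.90 in knockout cells. The share of rises among called genes moved from 60.2% to 52.1% and 40.9% in wild type, from 56.5% to 48.6% and 40.4% in knockout cells, from 56.5% to 46.8% and 41.5% between genotypes under TGF-β1 and from 54.5% to 43.6% and 43.1% for the interaction. It moved from 53.5% to 38.8% in the table for the vehicle comparison. Over all genes 2037 differed with vehicle, 196 within the first slide and 1049 within the second.

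The replicate numbers were not taken to pair the arrays, since correlations of same-numbered deviations ran from -0.03 to 0.22 and were not all over 0.1. As a hint from the data, 13 of 16 arrays correlated best with their own number. With the replicate number as a block, 12 genes were lower in knockout vehicle cells in place of 11, the added one being Ccl21a (adjusted p = 0.0438), and no other call changed. Signal near background limits Cxcl2, Ccl11, Ccl17, Ccl19, Ccl24, Ccl28, Cxcl13 and Ackr1.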
